A study of Mus musculus with 14 samples.

Results

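Inflammatory cytokines and chemokines were examined in the lungs of newborn mice that lack Atxn1l or Atxn1. The set is a list of 40 ligand genes of the chemokine, interleukin, tumour necrosis factor and colony-stimulating factor families, defined by gene name. Of these, 39 had a probe set named by their Entrez gene number among the 21212 probe sets of the deposited table. Ccl19, a ligand that guides dendritic cells and lymphocytes, was not analysed here.

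Whole lungs were taken at postnatal day 6 from mice of strain C57BL/6J, and their RNA was put on 14 Affymetrix arrays of the mouse gene ST 1.0 design. A first set compared 4 Atxn1L -/- mice with 4 wild types (WT), and a second compared 3 Atxn1 -/- mice with 3 wild types of their own. Litters came from intercrosses of heterozygotes. The labels describe no allele, no treatment and no sex, and do not say which arrays came from littermates. The mice were collected as a knockout with a wild type, but the arrays of one such pair are not named. Both genes encode chromatin-associated proteins that act with the repressor Capicua.

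Values are log2 levels from RMA, an array method that corrects background, equalises the arrays and summarises the probes of a gene. RMA was run separately on each set, so a level in one set cannot be read against a level in the other. Array medians lay between 8.44 and 8.53 in the Atxn1L set and between 9.21 and 9.24 in the Atxn1 set. Each array correlated with its closest neighbour at 0.994 or above across probe sets, and genes of alveolar type 2 cells were strongly present, with mean levels from 12.45 to 12.97 over the groups. The Atxn1l probe set itself read 6.68 to 7.05 in the 4 knockouts and 9.29 to 9.59 in their wild types (log2 change -2.58, SE 0.09, limma adjusted p = 1.18e-06). The Atxn1 probe set did not separate the Atxn1 knockouts from their wild types (log2 change 0.01, SE 0.07), and since its probes may lie outside the deleted part, it checks nothing.

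Chemokines are small secreted proteins that draw leukocytes along a gradient by binding receptors coupled to G proteins. CC and CXC ligands are named for the spacing of their first cysteines, and each attracts its own leukocytes: monocytes, neutrophils, eosinophils or lymphocytes. Interleukin-1 and tumour necrosis factor sit upstream and induce many chemokines through NF-kB, and interferons induce others through STAT proteins. In the lung, resident macrophages and the epithelium are among the local sources of these ligands.

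A level was called above background when its mean over a set passed the 95th percentile of olfactory and vomeronasal receptor probe sets, genes with little expression in lung. By that measure 25 of the 39 ligands were above background in the Atxn1L set and 23 in the Atxn1 set, with 22 above it in both. Those below it in both sets were Ccl4, Ccl8, Ccl12, Ccl24, Cxcl2, Cxcl5, Cxcl11, Il6, Lif, Osm, Il10, Csf2 and Csf3. A level at background cannot be told from no expression. In whole lung, fewer cells of a type and less RNA per cell cannot be told apart.

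Many of these genes are switched on through short sites just before the gene start. The 250 bases upstream of the start are shown for 5 ligands that the results below turn on: Ccl9, Cxcl9 and Cxcl10 had the smallest p-values in Atxn1L -/- lungs, Csf1 separated the groups, and Cxcl2 was high on a single array. Sequences are RefSeq promoter windows of build GRCm38.p6, written 5′ to 3′ on the strand of the gene, with motif matches in capitals. Ccl9 lies at chr11:83578637-83578886 on the minus strand, Cxcl9 at chr5:92328080-92328329 (minus), Cxcl10 at chr5:92348890-92349139 (minus), Csf1 at chr3:107760470-107760719 (minus) and Cxcl2 at chr5:90903649-90903898 (plus).
Ccl9: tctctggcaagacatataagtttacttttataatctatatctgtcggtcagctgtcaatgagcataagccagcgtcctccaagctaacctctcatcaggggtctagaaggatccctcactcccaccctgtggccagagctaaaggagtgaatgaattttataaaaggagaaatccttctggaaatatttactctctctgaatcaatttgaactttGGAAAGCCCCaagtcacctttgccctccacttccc
Cxcl9: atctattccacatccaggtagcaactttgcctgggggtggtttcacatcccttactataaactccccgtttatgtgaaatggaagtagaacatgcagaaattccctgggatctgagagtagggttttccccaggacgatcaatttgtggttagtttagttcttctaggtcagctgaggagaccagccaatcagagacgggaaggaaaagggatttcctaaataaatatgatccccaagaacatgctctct
Cxcl10: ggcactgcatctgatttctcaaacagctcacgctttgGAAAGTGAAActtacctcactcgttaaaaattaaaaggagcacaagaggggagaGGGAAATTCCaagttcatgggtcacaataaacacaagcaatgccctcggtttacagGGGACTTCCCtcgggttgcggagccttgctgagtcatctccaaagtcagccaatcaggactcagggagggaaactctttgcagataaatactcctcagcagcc
Csf1: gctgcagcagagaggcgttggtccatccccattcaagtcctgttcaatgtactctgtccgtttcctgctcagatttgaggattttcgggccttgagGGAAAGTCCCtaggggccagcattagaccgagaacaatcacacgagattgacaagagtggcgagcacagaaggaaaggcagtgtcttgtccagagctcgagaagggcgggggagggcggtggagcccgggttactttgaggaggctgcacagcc
Cxcl2: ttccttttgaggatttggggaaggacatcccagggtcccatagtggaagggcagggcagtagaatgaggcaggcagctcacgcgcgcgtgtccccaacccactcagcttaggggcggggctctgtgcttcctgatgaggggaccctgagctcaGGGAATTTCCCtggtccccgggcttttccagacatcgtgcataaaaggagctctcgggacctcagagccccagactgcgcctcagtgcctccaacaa
The capitals mark the interferon-stimulated response element core (GAAA, any 2 bases, then GAAA) and the kappaB consensus, searched on both strands together with the interferon-gamma-activated site (TTCNNNGAA). Cxcl10 held the interferon core 213 to 204 bases upstream of the start and kappaB matches at 159 to 150 and 103 to 94. Ccl9 had a kappaB match at 35 to 26 and Csf1 at 154 to 145. In Cxcl2 the kappaB matches on both strands overlapped, at 97 to 88 and 96 to 87. Cxcl9 held none of these letters in its window.

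A window was listed for 27 of the 39 ligands, giving 28 windows. The kappaB consensus was in the windows of 7 ligand genes (Ccl20, Ccl9, Csf1, Cxcl1, Cxcl10, Cxcl2 and Il6), against 3.9% of all 32851 windows of the same length. The interferon core was found for Cxcl10 and Cxcl14 (2.98% of all windows), and the interferon-gamma site for Ccl17 and Cxcl14 (7.02% of all windows). These matches describe letters in a window and not binding.

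The first comparison asked whether loss of Atxn1l was accompanied by altered ligand levels in lung. No ligand passed an adjusted p of 0.05 (0 of 39; limma, Benjamini-Hochberg over all 21212 probe sets), where 0.0424% of all probe sets did. Ligand levels were nonetheless above the wild-type mean for 35 of 39 genes, against 51.3% of all probe sets, with a median log2 change of 0.11 against 0.0026 for all probe sets. The ligands of smallest p were the macrophage chemokine Ccl9 and the interferon-induced Cxcl10 and Cxcl9. At an unadjusted p under 0.05 there were 9 ligands on the higher side (4.54% of all probe sets) and 1, Ccl22, on the lower side (3.95%).

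Knockout replicate 1 stood apart from the other three. It held the highest of the 8 values for 23 of the 39 ligands (59.0%), while it was highest for 20.2% of all probe sets. Averaged over the 39 ligands, knockouts 1 to 4 lay 0.44, 0.06, 0.14 and 0.12 above the wild-type mean, and the wild types lay between -0.04 and 0.04. All 4 knockouts were therefore above all 4 wild types in this average, replicate 2 by little. Without knockout 1, 30 of 39 ligands stayed above the wild-type mean, and the median was 0.057. The share of all probe sets above it was not counted in that fit. In the same fit 7 ligands on the higher side (3.62% of all probe sets) and 1 on the lower side had an unadjusted p under 0.05. The plot of changes shows every ligand with its interval.

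**Figure D1:**
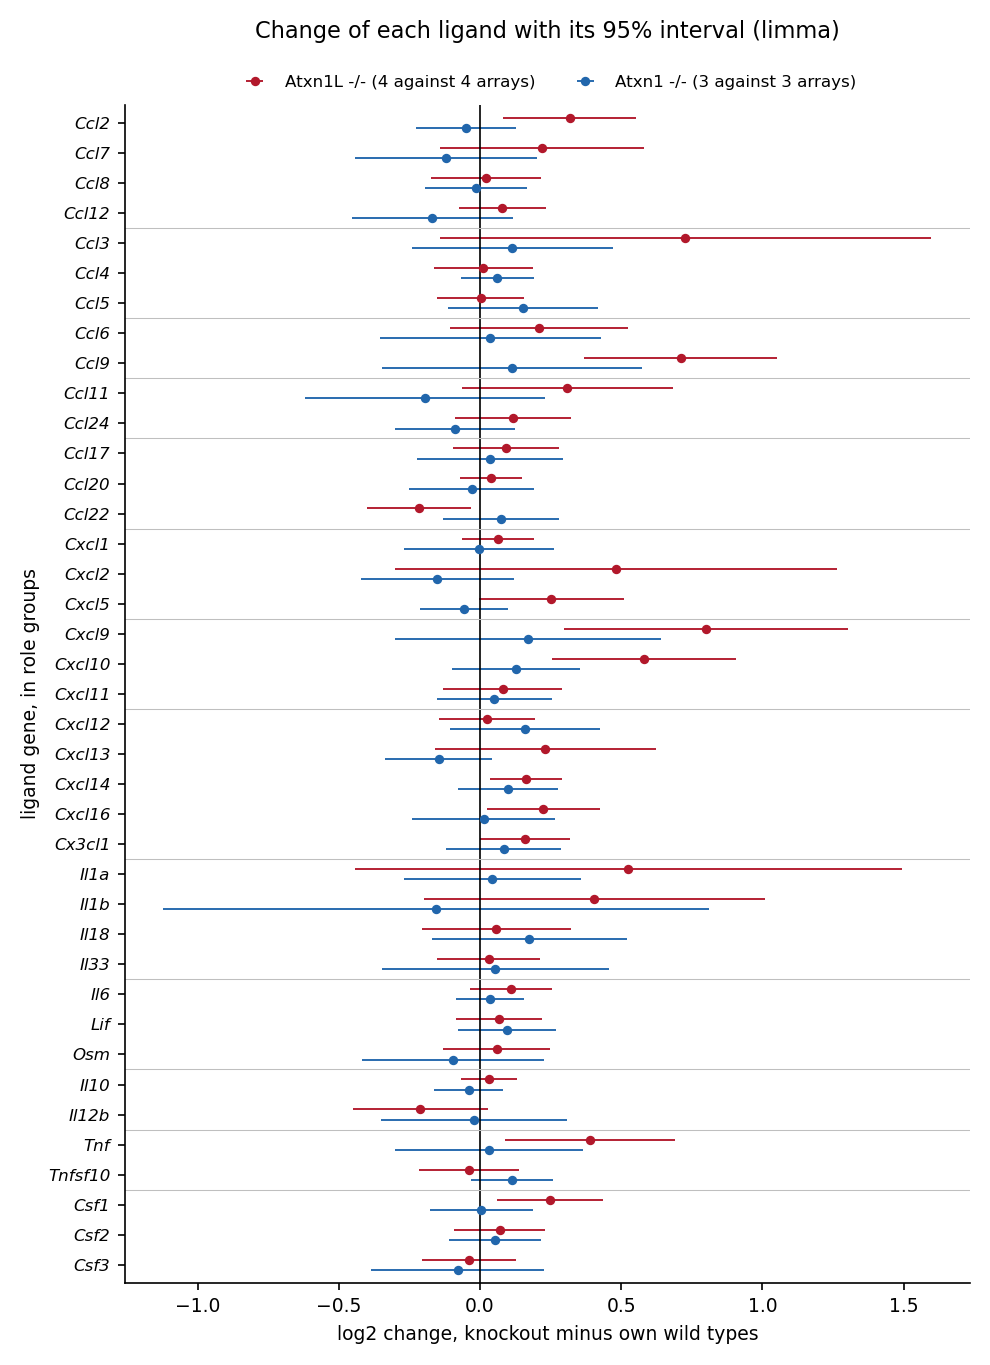
Log2 change (knockout minus its own wild types, horizontal axis) of each of the 39 ligands, grouped by role, with the 95% interval of the limma fit; red is Atxn1L -/- (4 against 4 arrays) and blue is Atxn1 -/- (3 against 3). Of the red points, 35 lie above 0 and the widest intervals belong to Ccl3, Il1a and Cxcl2, while every blue interval includes 0.

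Among macrophage chemokines, Ccl9, a rodent ligand of Ccr1 made by macrophages (Entrez gene 20308, chromosome 11), had the smallest p of all the ligands. Its levels were 9.53, 8.75, 9.02 and 8.86 in knockouts 1 to 4 and 8.15, 8.54, 8.28 and 8.35 in wild types 1 to 4. Every knockout was above every wild type. The log2 change was 0.71 (SE 0.15, n = 4 and 4, limma adjusted p = 0.251), which is 1.64-fold, and it was 0.55 without knockout 1. Ccl6, a related rodent chemokine, had a log2 change of 0.21 (SE 0.14), with overlapping groups.

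Cxcl9, Cxcl10 and Cxcl11 are induced by interferon-gamma and bind Cxcr3 on activated T cells and natural killer cells. Cxcl9 (Entrez gene 17329, chromosome 5) had levels of 8.46, 8.14, 8.80 and 9.21 in the knockouts and 7.59, 7.53, 8.17 and 8.12 in the wild types. Knockouts 3 and 4 were the highest here, knockout 1 did not lead, and knockout 2 lay within the wild-type range. The log2 change was 0.80 (SE 0.23, limma adjusted p = 0.388), or 1.74-fold, and 0.86 without knockout 1. Cxcl10 (Entrez gene 15945, chromosome 5) gave 8.22, 7.55, 7.95 and 8.16 in the knockouts against 7.30, 7.15, 7.57 and 7.53. Its second knockout again lay inside the wild-type range and the other three lay above it. The log2 change was 0.58 (SE 0.15, limma adjusted p = 0.332), and it was 0.50 without knockout 1. Cxcl11 was below background, with a log2 change of 0.08 (SE 0.09).

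Interferon-stimulated genes were read on the same arrays. Of 20 measured genes of that kind, 20 were above the wild-type mean and 15 had an unadjusted p under 0.05, with a median log2 change of 0.42 and none past the adjusted threshold. Their mean over the list lay 0.61, 0.32, 0.30 and 0.60 above the wild types in knockouts 1 to 4. In wild types 1 to 4 it was -0.17, -0.16, -0.04 and 0.37, so the fourth wild type lay above knockouts 2 and 3. Oas2, an antiviral enzyme, had a log2 change of 0.71 (SE 0.16, limma adjusted p = 0.282). The part of this list in the Cxcl9 and Cxcl10 values was not tested.

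Of the 4 monocyte-attracting CC ligands, Ccl2 (Entrez gene 20296, chromosome 11), the main ligand of Ccr2 on monocytes, separated the groups. Levels were 8.22, 7.94, 7.68 and 7.76 in the knockouts and 7.50, 7.67, 7.63 and 7.52 in the wild types. The lowest knockout lay only just above the highest wild type. Ccl2 had a log2 change of 0.32 (SE 0.11, limma adjusted p = 0.471), and one of 0.21 when knockout 1 was left out. Ccl7 had a log2 change of 0.22 that became 0.02 without that array, and the dim Ccl8 and Ccl12 had changes of 0.02 and 0.08.

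Tnf, the tumour necrosis factor made mainly by macrophages (Entrez gene 21926, chromosome 17), also had non-overlapping groups. The knockouts read 8.12, 7.41, 7.47 and 7.58 and the wild types 7.16, 7.27, 7.25 and 7.35. Knockout 1 stood well above the other three, which lay only slightly over the wild types. Tnf had a log2 change of 0.39 (SE 0.14, limma adjusted p = 0.485), and of 0.23 without knockout 1. Tnfsf10, a ligand of the same family that can trigger cell death, had a log2 change of -0.04 (SE 0.08).

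Among colony-stimulating factors, Csf1 supports the survival of macrophages and is made largely by stromal and epithelial cells (Entrez gene 12977, chromosome 3). Its levels were 9.40, 9.30, 9.42 and 9.32 in the knockouts and 9.15, 8.86, 9.15 and 9.30 in the wild types. The knockouts lay close together just above the highest wild type. Csf1 had a log2 change of 0.25 (SE 0.08, limma adjusted p = 0.479), which was 0.23 without knockout 1 and 0.16 without wild type 2. Csf2, which alveolar macrophages need, and Csf3, which neutrophils need, were below background, with log2 changes of 0.07 and -0.04.

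**Figure D2:**
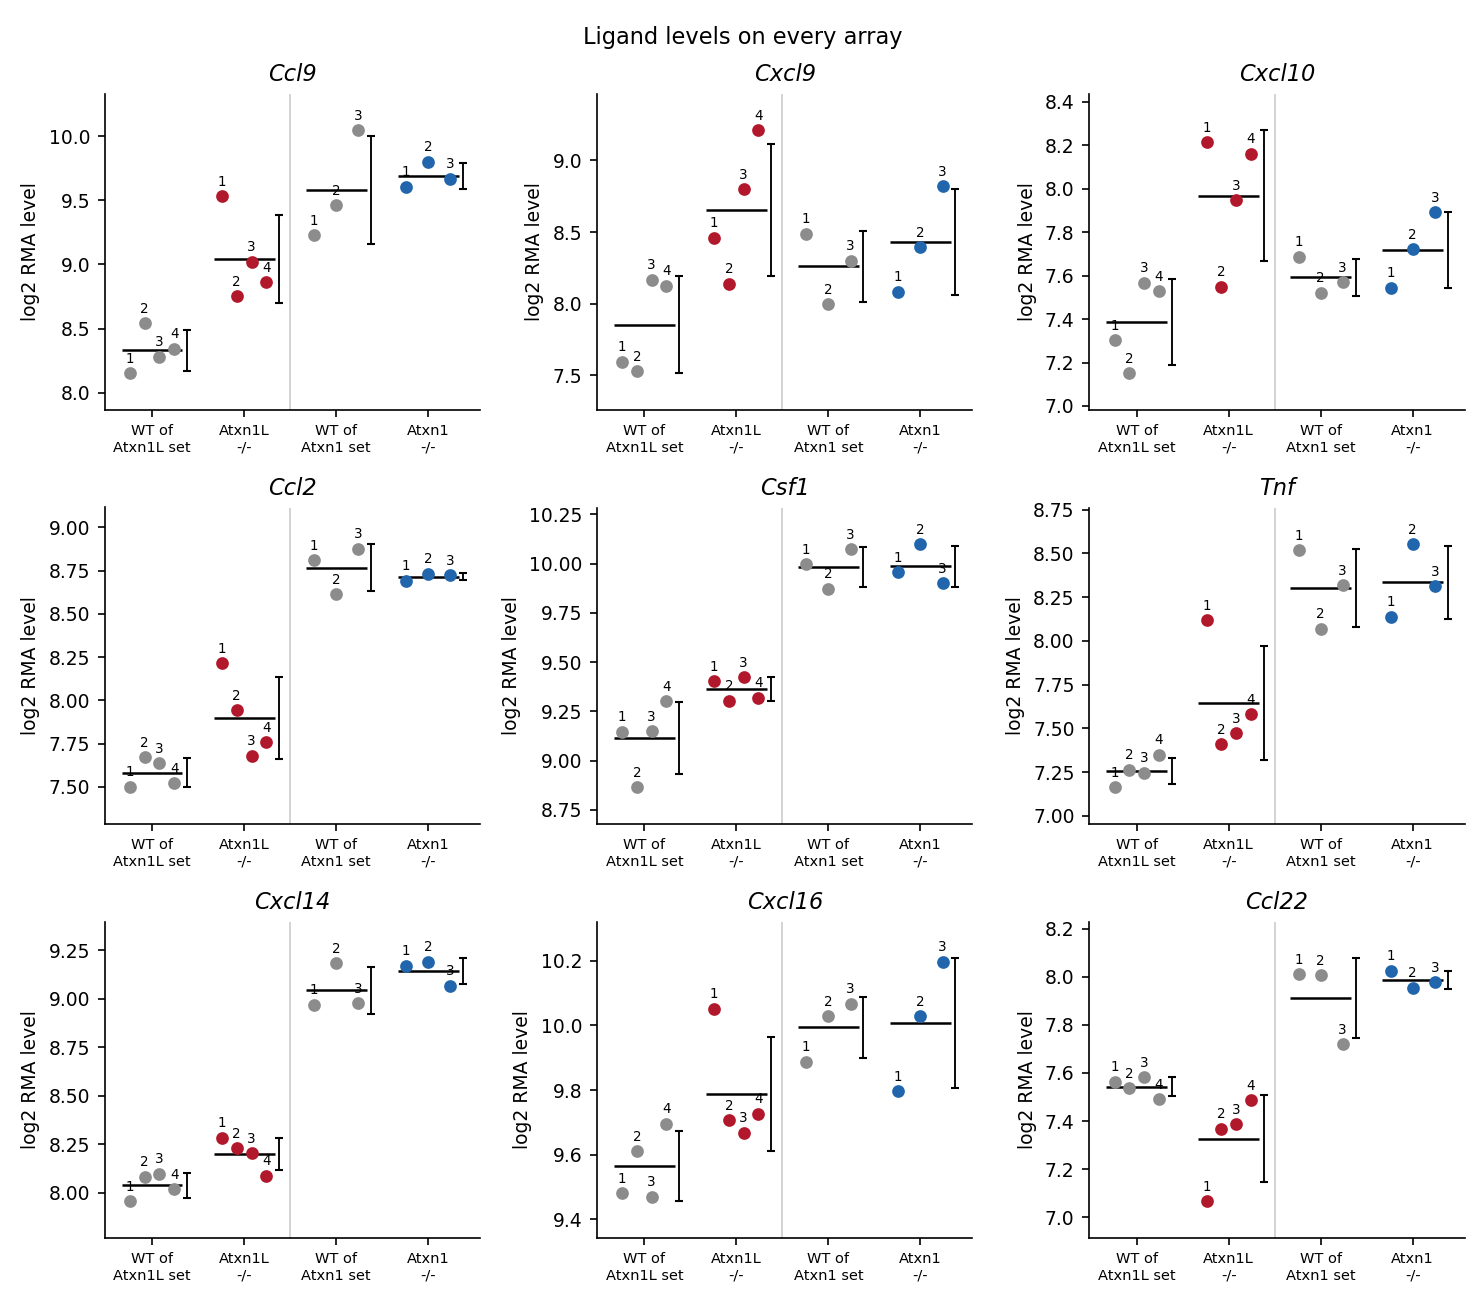
Log2 RMA level (vertical axis, scaled per gene) of 9 ligands on each of the 14 arrays, with the replicate number beside each point; horizontal lines are group means and the bars beside them are the SD. Ccl9, Ccl2, Csf1 and Tnf are higher in all 4 Atxn1L -/- arrays than in their 4 wild types, Ccl22 is lower, and no such separation is seen between the 3 Atxn1 -/- arrays and their 3 wild types.

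Chemokines that tissue cells make at rest showed small differences. Cxcl14 (Entrez gene 57266), an epithelial chemokine, read 8.28, 8.23, 8.20 and 8.09 in the knockouts and 7.96, 8.08, 8.10 and 8.02 in the wild types. Cxcl16 (Entrez gene 66102), a membrane-bound ligand of Cxcr6, read 10.05, 9.71, 9.67 and 9.73 against 9.48, 9.61, 9.47 and 9.70. Cx3cl1 (Entrez gene 20312), or fractalkine, which holds Cx3cr1-bearing monocytes and macrophages, read 9.45, 9.45, 9.44 and 9.19 against 9.31, 9.13, 9.2 and 9.26. In each of these, 1 knockout lay inside the wild-type range. The log2 changes were 0.16 for Cxcl14 (SE 0.06), 0.22 for Cxcl16 (SE 0.09, and 0.14 without knockout 1) and 0.16 for Cx3cl1 (SE 0.07), with limma adjusted p from 0.485 to 0.586. Cxcl12, the stromal ligand of Cxcr4, had a log2 change of 0.02 (SE 0.08), and the B-cell attractant Cxcl13 went from 0.23 to 0.02 without knockout 1.

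Ligands of lymphocytes and dendritic cells included the one member on the lower side. Ccl22 (Entrez gene 20299, chromosome 8), a ligand of Ccr4 made by dendritic cells and macrophages, read 7.07, 7.37, 7.39 and 7.49 in the knockouts and 7.56, 7.54, 7.58 and 7.49 in the wild types. The lowest value was again that of knockout 1, and knockout 4 lay below wild type 4 by less than the rounding shown. The log2 change was -0.22 (SE 0.08, limma adjusted p = 0.527), and -0.13 without knockout 1. Ccl17, the other Ccr4 ligand, and Ccl20 had log2 changes of 0.09 and 0.04. Of 16 monocyte and dendritic markers, 15 were above the wild-type mean, with a median log2 change of 0.11, and 5 of these had an unadjusted p under 0.05. The remaining one, Cd209a, a lectin of dendritic cells, was lower and was the 1 marker past the adjusted threshold (log2 change -0.58, SE 0.07, limma adjusted p = 0.0253). Its part in the Ccl22 value was not tested.

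Counted over the ligands, Ccl2, Ccl9, Tnf and Csf1 had all knockouts above all wild types (2.76% of all probe sets), and Ccl22 all knockouts below (2.56%). Groups that do not overlap stay apart when an array is left out, so these 5 ligands had to separate without knockout 1 too. No further ligand joined them in that fit, where 3.66% of all probe sets were higher and 4.87% lower. An unadjusted p under 0.05 was kept in each of the 8 fits that left out 1 array by Ccl2, Ccl9, Cxcl9, Cxcl10, Cxcl14, Tnf and Csf1. In any 1 of these fits, 3.62% to 5.36% of all probe sets had it on the higher side. The share of all probe sets that kept it in all 8 was not counted. The fits share most of their arrays, so they are not separate tests. Ccl22 kept it in 6 of them, Cxcl16 in 5 and Cx3cl1 in 2.

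Il1a, Il1b, Ccl3 and Cxcl2 each had 1 array of the Atxn1L set over 1 log2 unit above the next. Il1a, an interleukin-1 released by damaged or activated cells, read 9.15, 6.97, 6.89 and 7.13 in the knockouts and 7.10, 7.30, 6.65 and 6.99 in the wild types. Knockout 1 lay 1.85 above the next array and the other three lay within the wild-type range. Its log2 change was 0.53 (SE 0.43, limma adjusted p = 0.805), and -0.01 without knockout 1.

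Il1b, the interleukin-1 that inflammasomes activate, read 8.93, 7.47, 7.90 and 7.73 against 7.44, 7.89, 7.34 and 7.74. Ccl3, a chemokine of activated macrophages, read 9.71, 7.43, 8.11 and 8.16 against 7.69, 7.97, 7.41 and 7.42. Cxcl2, a neutrophil attractant that binds Cxcr2, read 7.64, 5.93, 6.16 and 5.94 against 5.77, 6.47, 5.81 and 5.71. Knockout 1 was the highest array for each of them, by 1.02 for Il1b, 1.55 for Ccl3 and 1.18 for Cxcl2. The log2 changes of 0.41, 0.73 and 0.48 became 0.10, 0.28 and 0.08 when that array was left out, and none passed the adjusted threshold either way.

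The eosinophil attractant Ccl11 had a log2 change of 0.31, and of 0.11 without knockout 1. The neutrophil attractant Cxcl5 had one of 0.25 (SE 0.11), and of 0.15 without that array. Il18 had a log2 change of 0.06 and Il33, an alarm signal of epithelium and endothelium, one of 0.03. Ccl4 and Ccl5 had log2 changes of 0.01 and 0.0025. Il6, Lif and Osm, which signal through the shared receptor subunit gp130, had changes from 0.06 to 0.11 at background levels. The anti-inflammatory Il10 differed by 0.03 and Il12b by -0.21 (SE 0.11), also at background. The remaining dim or flat ligands, Ccl24 and Cxcl1, had log2 changes of 0.12 and 0.06.

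**Figure D3:**
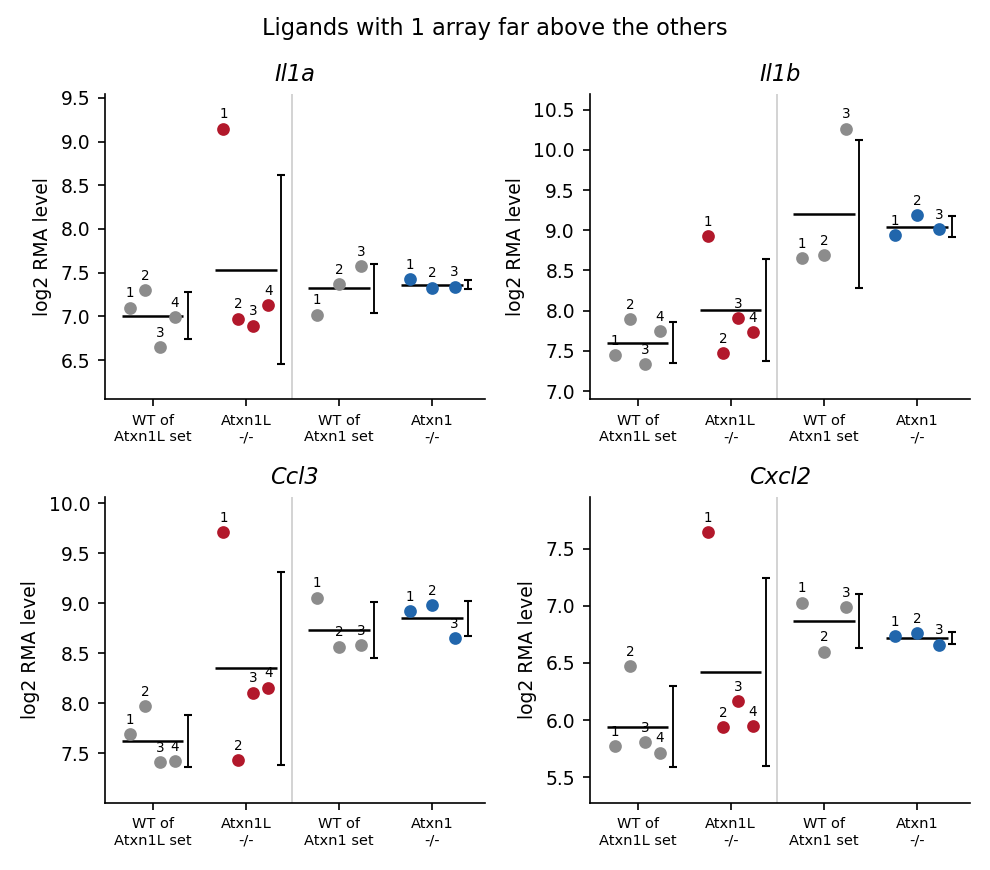
Log2 RMA level (vertical axis) of Il1a, Il1b, Ccl3 and Cxcl2 on each array, with replicate numbers; lines are group means and bars the SD. Atxn1L -/- replicate 1 stands 1.02 to 1.85 above the next array of its set for these 4 ligands, and wild type 3 of the Atxn1 set stands 1.07 above the next for Il1b.

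**Figure D4:**
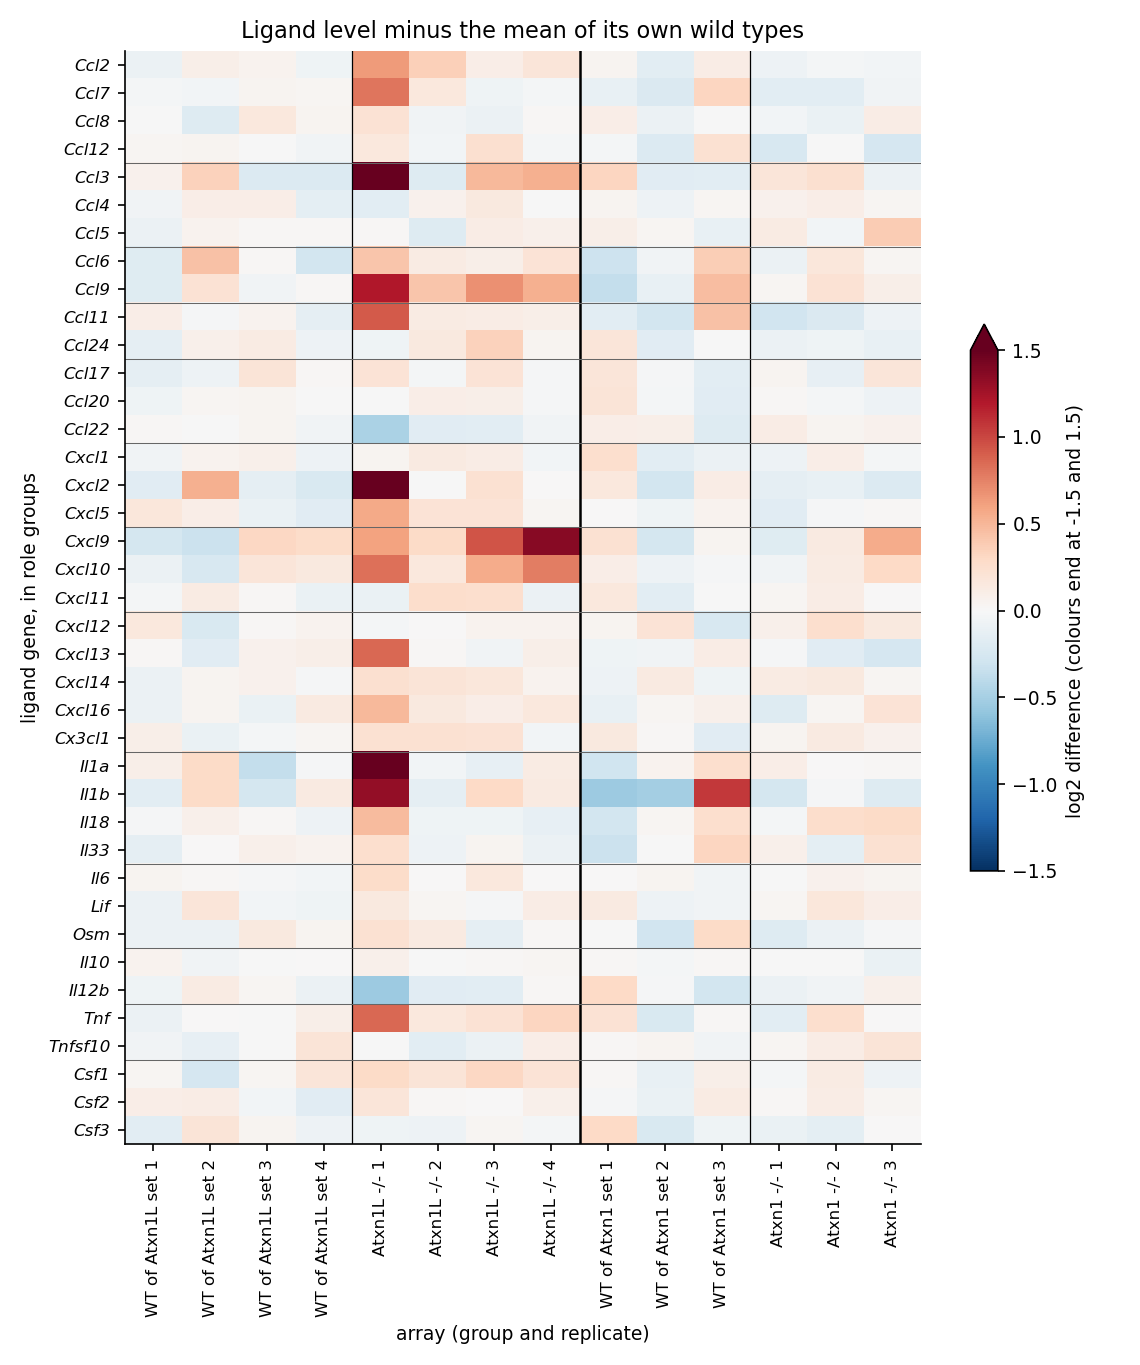
Log2 level minus the mean of its own wild types for the 39 ligands (rows, grouped by role) on the 14 arrays (columns); red is higher, blue lower, with colours ending at 1.5 in either direction. The column of Atxn1L -/- replicate 1 is red over many roles, and some rows, such as those of Ccl9, Cxcl9 and Cxcl10, are red in other knockouts as well.

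Markers of leukocytes were read on the same arrays. All 20 neutrophil genes were above the wild-type mean in Atxn1L -/- lungs, 9 of them with an unadjusted p under 0.05 and none past the adjusted threshold, with a median of 0.65 (0.34 without knockout 1). Their mean level was 8.44 to 9.77 over the knockouts and 8.0 to 8.54 over the wild types, and knockout 1 alone lay 1.55 above the wild-type mean. Knockout 4, at 0.21 above it, was below wild type 2, at 0.32. Of 21 macrophage genes, 17 were above the wild-type mean (15 without knockout 1). On the lower side 1 had an unadjusted p under 0.05 (3 without knockout 1), and 12 did on the higher side (11 without it). Among the higher genes 2 passed the adjusted threshold (4 without knockout 1). They were the scavenger receptor Msr1 (log2 change 0.69, limma adjusted p = 0.0197) and Chil3 (1.46, limma adjusted p = 0.021), a chitinase-like protein of alveolar macrophages whose mean level was at background. The macrophage mean level was 8.99 to 9.47 in the knockouts and 8.74 to 8.83 in the wild types, so these groups did not overlap. Genes of T, natural killer and B cells had a median of 0.035 (0.12 without knockout 1), with 4 of 20 on the higher side at an unadjusted p under 0.05 (6 without knockout 1). Their mean lay -0.12, 0.01, 0.22 and 0.20 from the wild-type mean in knockouts 1 to 4, so knockout 1 was the lowest of the knockouts here. Genes of mast cells, eosinophils and basophils had a median of 0.01. The part of these cells in the ligand values was not tested.

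Knockout 1 was also the only Atxn1L -/- array with a low level of Xist, the transcript of the silenced X chromosome, at 7.04 against 13.09 to 13.24 in the other three. Among the wild types, replicates 1 and 2 were low (6.32 and 6.59) and replicates 3 and 4 high (13.25 and 13.29). The Y-linked Ddx3y ran the opposite way. With the Xist level as a covariate, the log2 changes of Ccl9, Ccl2 and Tnf were 0.79, 0.36 and 0.44, those of Cxcl9, Cxcl10 and Csf1 were 0.68, 0.57 and 0.22, and still no ligand passed the adjusted threshold.

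**Figure D5:**
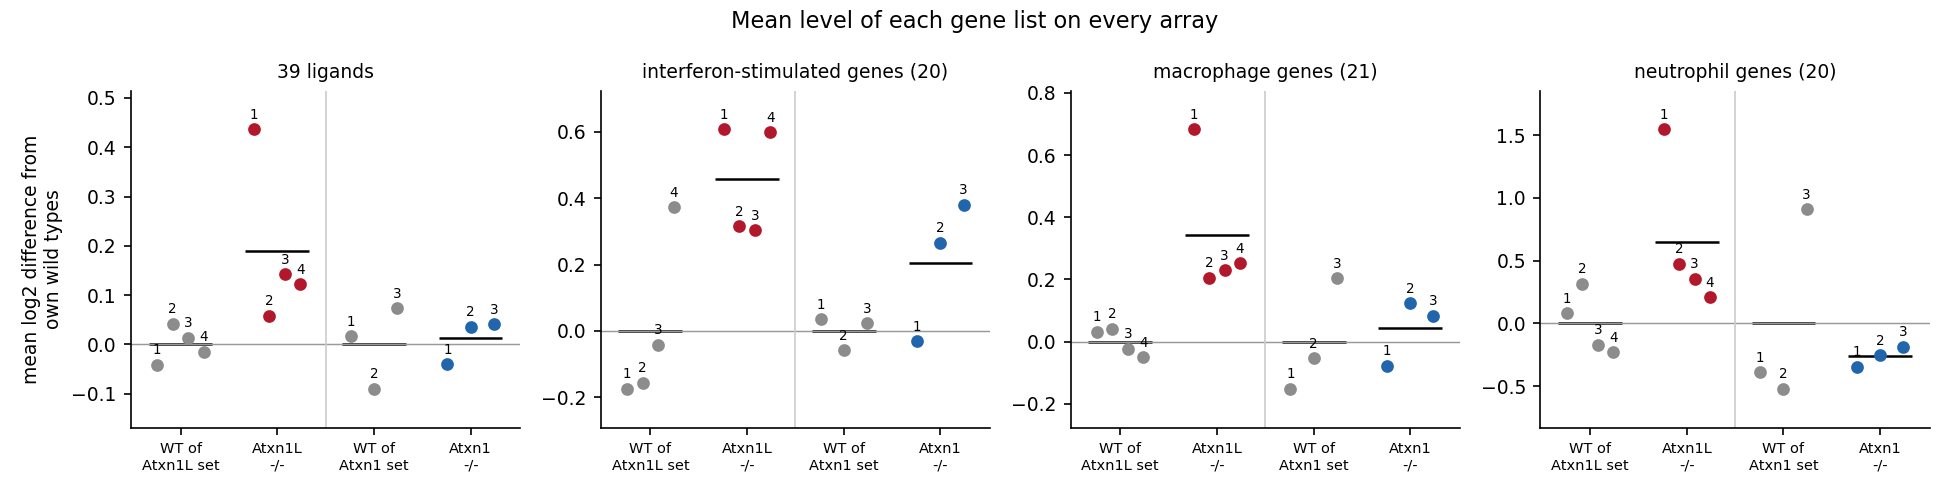
Mean log2 difference from the own wild types (vertical axis, scaled per panel) of the 39 ligands, 20 interferon-stimulated genes, 21 macrophage genes and 20 neutrophil genes on each array, with replicate numbers and lines at group means. Atxn1L -/- replicate 1 is the highest array of its set in every panel (0.44 for the ligands and 1.55 for the neutrophil genes). For the interferon-stimulated genes it is so only just (0.607 against 0.599 in replicate 4). Wild type 3 of the Atxn1 set is the highest of its set for the ligands, the macrophage genes (0.20) and the neutrophil genes (0.91).

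Receptors for the ligands were read from 23 chemokine receptor and 23 cytokine receptor genes, and none passed the adjusted threshold in Atxn1L -/- lungs. Of the chemokine receptors, 14 were above the wild-type mean, 4 with an unadjusted p under 0.05, and 2 were below it at that level; the median log2 change was 0.055. Xcr1, found on dendritic cells that cross-present antigen, had a log2 change of 0.47 (SE 0.09, limma adjusted p = 0.232), and Cx3cr1, the fractalkine receptor, one of 0.30 (SE 0.07, limma adjusted p = 0.254). The scavenging receptor Ackr4 had a log2 change of -0.30 (SE 0.08). Csf1r, the receptor of Csf1 on macrophages, had a log2 change of 0.48 (SE 0.09, limma adjusted p = 0.207), and Il10ra one of 0.44 (SE 0.09, limma adjusted p = 0.233). For Xcr1, Cx3cr1, Csf1r and Il10ra all knockouts were above all wild types, as for 2.76% of all probe sets. These receptors were named for their small p-values, which makes such separation likely, and the other receptors are not counted this way here. Csf1r also counts among the macrophage genes and Xcr1 among the dendritic ones. Lifr, the receptor of Lif, had a log2 change of -0.24 (SE 0.06), with every knockout below every wild type (2.56% of all probe sets). The cytokine receptors together had a median of 0.16, with 18 above the wild-type mean, and 0.053 without knockout 1.

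Of 28 NF-kB and inflammasome genes, 24 were above the wild-type mean and 11 had an unadjusted p under 0.05, none past the adjusted threshold. The median was 0.13, and 0.091 without knockout 1. Nfkbie and Bcl3, members of the family of NF-kB inhibitors, had log2 changes of 0.28 (SE 0.06, limma adjusted p = 0.251) and 0.33 (SE 0.07, limma adjusted p = 0.268). Casp1, the inflammasome protease that matures Il1b and Il18, had one of 0.39 (SE 0.10). Among 14 Capicua targets and ERK feedback genes, 1 passed, the transcription factor Etv4 (log2 change 0.48, SE 0.05, limma adjusted p = 0.013).

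The second comparison asked the same of Atxn1. No ligand had an adjusted p under 0.05 (0 of 39, and 0% of all probe sets; limma) or an unadjusted one (0 of 39, against 1.22% of all probe sets), and the smallest adjusted p was 0.9999. Of the ligands, 23 were above the wild-type mean, against 47.3% of all probe sets, and the median log2 change was 0.034. No ligand had non-overlapping groups, where 2.85% of all probe sets had all knockouts above and 1.9% all below. Ligand changes ran from -0.19 for Ccl11 to 0.17 for Il18.

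The 5 ligands of smallest p show how closely these groups overlapped. Tnfsf10 read 11.22, 11.30 and 11.39 in the knockouts and 11.21, 11.24 and 11.14 in the wild types, a log2 change of 0.11 (SE 0.06, limma unadjusted p = 0.11). Cxcl13 read 9.64, 9.49 and 9.41 against 9.60, 9.61 and 9.78, a change of -0.15 (SE 0.08). In both, 1 knockout lay within the wild-type range. Cxcl12 read 11.11, 11.29 and 11.18 against 11.07, 11.23 and 10.80, a change of 0.16 (SE 0.11). Ccl12 read 6.90, 7.13 and 6.89 against 7.12, 6.94 and 7.37, a change of -0.17 (SE 0.12). Ccl5, which draws T cells and other leukocytes, read 10.05, 9.89 and 10.31 against 10.02, 9.96 and 9.81, a change of 0.15 (SE 0.11). In all 5 the groups overlapped.

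Values of the ligands that stood out in the other knockout were flat or overlapping here. Ccl9 read 9.60, 9.80 and 9.67 in the Atxn1 -/- lungs and 9.23, 9.46 and 10.05 in their wild types (log2 change 0.11, 95% interval -0.35 to 0.57). Ccl2 read 8.69, 8.73 and 8.72 against 8.81, 8.61 and 8.88 (-0.05, interval -0.23 to 0.13). Cxcl9 read 8.08, 8.39 and 8.82 against 8.49, 8.0 and 8.30 (0.17, interval -0.30 to 0.64), and Cxcl10 7.54, 7.72 and 7.89 against 7.69, 7.52 and 7.57 (0.13, interval -0.10 to 0.35). The third knockout was the highest array for both Cxcl9 and Cxcl10 and the first knockout was near the wild-type low. Cxcl10 was below background in this set. Tnf and Csf1 had log2 changes of 0.03 (interval -0.30 to 0.37) and 0.0045 (interval -0.18 to 0.19).

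Wild type 3 of this set stood apart for several ligands. Il1b read 8.65, 8.69 and 10.26 in the wild types and 8.94, 9.19 and 9.01 in the knockouts, so its log2 change of -0.16 (SE 0.41) became 0.37 once that array was left out. It was also highest for Ccl11 (10.12), Ccl7 (8.95) and 13 of the 39 ligands in all (33.3%, against 12% of all probe sets). On the same array the neutrophil genes lay 0.91 above the wild-type mean, against -0.39 and -0.52 in the other wild types, and it was the only Xist-high wild type of the set. Their part in the ligand values was not tested. Without it, 25 ligands were above the wild-type mean, the median was 0.041, and Il1b and Ccl9 had an unadjusted p under 0.05 on the higher side (0.806% of all probe sets in that fit). With wild type 1 left out 2 ligands were on that side (2.72%), and with wild type 2 left out 2 (1.65%) and another 2 on the lower side. No adjusted p passed in any of these fits. Wild type 1 was the highest array for 10 of the 39 ligands (25.6%) and for 41% of all probe sets. With wild type 1 left out, 5 ligands had all knockouts above the remaining wild types (13.4% of all probe sets).

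Receptors, signalling genes and some cell markers were also read in Atxn1 -/- lungs, where the median of all probe sets was -0.0038. Median log2 changes were -0.026 for chemokine receptors, -0.02 for cytokine receptors and -0.029 for NF-kB and inflammasome genes, with 1, 0 and 1 genes at an unadjusted p under 0.05 and none past the adjusted threshold. Wild type 3 lay 0.16, 0.25 and 0.16 above the wild-type mean for these lists, and without it the medians were 0.0088, 0.052 and 0.044. Interferon-stimulated genes had a median of 0.19, with 4 of 20 higher at an unadjusted p under 0.05 (0.75% of all probe sets). Without wild type 3 their median was 0.21, with 1 of 20 higher at that p (0.806%). Among neutrophil genes 1 of 20 was above the wild-type mean (median -0.21). Without wild type 3, 14 were, with a median of 0.17 and 7 higher at that p. Of 21 macrophage genes 16 were above it (median 0.026). Without wild type 3 all 21 were (median 0.083), 3 of them higher at that p. None of these genes passed the adjusted threshold.

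The last comparison tested whether the knockouts differed from each other in their effect on the ligands, in 1 limma fit of all 14 arrays. The difference was above 0 for 30 of 39 ligands, against 53.5% of all probe sets, with a median of 0.076. No ligand had an adjusted p under 0.05 (0 of 39, against 0.00943% of all probe sets), and the smallest adjusted p of a ligand was 0.9996. At an unadjusted p under 0.05, 3 ligands had the larger change in Atxn1L -/- (1.74% of all probe sets) and 1 the smaller (1.5%). These were Ccl2 (difference 0.37, 95% interval 0.05 to 0.69), Ccl9 (0.60, interval 0.02 to 1.17), Cxcl10 (0.45, interval 0.01 to 0.89) and Ccl22 (-0.29, interval -0.56 to -0.02). Cxcl10 and Ccl22 were below background in the Atxn1 set. Ccl22 averaged 7.985 in the Atxn1 knockouts and 7.912 in their wild types, with background at 7.994. Of the 22 ligands above background in both sets, 2 were on the larger side at that p and 0 on the smaller. Of all 14777 probe sets above background in both, 262 were on the larger side and 282 on the smaller. With Atxn1L -/- replicate 1 and wild type 3 of the Atxn1 set both left out, the differences of Ccl2, Ccl9, Cxcl10 and Ccl22 were 0.21, 0.20, 0.38 and -0.11. Leaving out 1 array changed the counts of ligands at an unadjusted p under 0.05. No ligand had such a p without Atxn1 knockout 1 or without Atxn1 wild type 3. In those fits 0.957% and 1.43% of all probe sets had it on the larger side. Only Ccl2 did without Atxn1L -/- replicate 1 (1.36% of all probe sets on the larger side). Without Atxn1 wild type 2, 6 ligands did on the larger side (3.92% of all probe sets) and 1 on the smaller.

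Cxcl9 differed by 0.63, but its interval ran from -0.11 to 1.37. Il1a, Il1b and Ccl3 had the widest intervals: -0.75 to 1.72, -0.55 to 1.68 and -0.51 to 1.74. These data therefore do not resolve whether the acute ligands respond alike to both losses. Of the 39 ligands, 21 were above the wild-type mean in both knockouts (24.4% of all probe sets were), 14 in Atxn1L -/- alone, 2 in Atxn1 -/- alone and 2 in neither.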

How the data were processed

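Lung RNA (100 ng) from 14 mice at postnatal day 6 was hybridised by the authors to Affymetrix mouse gene arrays. The deposited values are log2 levels made by the authors with RMA, run separately on the 8 and the 6 arrays per the series' design text; the submitters' processing notes name RMA and limma. Which release of the Entrez-based probe sets was used is not stated in the labels, and the number of arrays limits the precision. Of 21212 probe sets, 18786 took their gene from the platform's gene table and 1917 from the Entrez number of their ID in the RefSeq table (Il12b among them), 6 had several genes and 503 stayed unnamed.

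Each knockout was fitted against its own wild types in R 4.3.3 with lmFit and eBayes of limma 3.58.1 (two-sided, without covariates), with Benjamini-Hochberg adjustment over all probe sets and a threshold of 0.05. To compare the knockouts, 4 group means were fitted to all 14 arrays and the effects subtracted. SE is that of the limma fit. No set test was run. The script was tested on simulated data. The ligands and gene lists were chosen with earlier results of these data known. Values on every array are given for ligands with an unadjusted p under 0.05 (at most 10 a comparison, or the 5 of smallest p where fewer than 5 met this), or with an array over 1 log2 unit above its set's median; of each list at most 3 genes of smallest p are named. Same-numbered knockout and wild-type arrays correlated in their deviations at 0.04 to 0.38 in the first set and -0.42 to 0.42 in the second, and the labels do not tie a number to a pair of mice, so the numbers were not taken as pairs. Alternatives tried were a replicate block, a trended robust prior, array weights, quantile normalization, median centring, leaving out dim probe sets, the Xist level as covariate and leaving out each array. Leaving out one array of each set together was added after seeing the data.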

Additional observations from a re-analysis of the deposited data

Results flagged for a closer look

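In groups of 4 arrays, an array was singled out where its gap to the nearest other array was too large a share of the group's range by Dixon's 95% critical value. This happened in 8 of 78 tests of the 39 ligands. The tests share the same arrays and are not independent. The share of all probe sets singled out in this way was not counted, so the number is not set against chance. Groups of 3, and so the Atxn1 set, were not tested.

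Of the 8 cases, 6 were Atxn1L -/- replicate 1, each time as the highest array. Il1a read 9.15 there with 7.13 next, and Cxcl2 read 7.64 with 6.16 next. Ccl11 read 9.19 with 8.40 next, and Cxcl13 read 9.79 with 9.02 next. For Il18 the level was 8.57 with 8.04 next, and for Cxcl16 it was 10.05 with 9.73 next. The remaining cases were Cxcl2 in wild type 2 of the same set, high at 6.47 with 5.81 next, and Cx3cl1 in Atxn1L -/- replicate 4, low at 9.19 with 9.44 next. Cxcl2 was below background in this set.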

How the results depend on the processing

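No ligand passed the adjusted threshold in any of the 3 comparisons under any alternative run. Over all results and alternatives, 563 values kept direction and call or stayed close to the value given, 27 moved and 2 reversed. In the Atxn1L comparison, 9 of all probe sets passed as fitted, 2 with the replicate block, 5 with dim probe sets left out, and 2 to 25 when 1 array was left out (2 without knockout 4 or wild type 2, 25 without wild type 4). Without dim probe sets 23 of 25 ligands were above the wild-type mean, as were 7610 of 15075 probe sets. Leaving out 1 array moved the ligand median between 0.057 (without knockout 1) and 0.15. Il1a ran from -0.012 (without knockout 1) to 0.74 (without knockout 3). In the Atxn1 comparison, array weights called 1 probe set against 0. There 15 of 23 ligands were above the wild-type mean without dim probe sets, as were 8182 of 15327 probe sets. Il1b ran from -0.43 (without wild type 1) to 0.37 (without wild type 3). The ligand median ran from 0.0014 (without wild type 2) to 0.043, and was -0.0037 with the Xist covariate. For the difference between knockouts, 2 of all probe sets passed as fitted, 1 with the replicate block and 4 with array weights. With 1 array left out 1 to 2 passed, and 1 with Atxn1L -/- replicate 1 and Atxn1 wild type 3 both left out. Without dim probe sets 18 of 24 ligands were above 0, and the share of all probe sets was not counted there. The median of 0.076 became 0.19 with array weights and also without dim probe sets. The cause of these shifts was not tested, and some of the fits concerned held fewer probe sets or arrays. Since the labels do not tie the replicate numbers to pairs of mice, the block fits say nothing about weaker effects. Signal over background limits what can be said of the dim ligands.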
